A study of Homo sapiens with 6 samples.

Results

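The miR-15/16 family is a group of miRNAs that restrain the cell cycle, and the 10 mature miRNAs described here are its human (hsa) arms hsa-miR-15a-5p, hsa-miR-15b-5p, hsa-miR-15b-3p, hsa-miR-16-5p, hsa-miR-16-2-3p, hsa-miR-195-5p, hsa-miR-424-5p, hsa-miR-424-3p, hsa-miR-497-5p and hsa-miR-503-5p. They were taken by name from the 1582 miRNAs of a small RNA sequencing table, and all 10 passed the filter on low counts. MDA-MB-231, a human triple-negative breast cancer (TNBC) cell line, was sequenced as 3 libraries of blank, non-transfected cells (control) and 3 libraries of cells that overexpress RARαS77A. RARαS77A is the retinoic acid receptor α with the serine at position 77 replaced by alanine, so that this residue cannot be phosphorylated. The sequencing asked which miRNAs differ once this receptor is present. The series text describes the construct as lentiviral, and neither an empty vector nor wild-type RARα was sequenced, so delivery of the construct and the mutant receptor cannot be told apart. The sources used here state neither whether the RARαS77A cells were 1 clone or a pool nor whether each replicate was a culture of its own. The p-values therefore measure the spread between libraries, which may be technical. A small RNA table holds no RARα mRNA, so the construct could not be checked, and the libraries held between 9019266 and 11338580 counts.

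A miRNA precursor is cut into a 5′ arm and a 3′ arm, of which 1, the guide, is usually kept in an Argonaute protein while the other, the passenger, is degraded. The guide finds its targets mainly through its seed, bases 2 to 8 from its 5′ end, which pairs with matching sites in the 3′UTRs of mRNAs. Guides of the miR-15/16 family are known for repressing D-type cyclins, cyclin E and CDC25A, which drive cells from G1 into S phase, and the survival gene BCL2. Loss of the locus that holds MIR15A and MIR16-1 is a recurrent lesion of chronic lymphocytic leukemia.

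The 10 members come from 8 precursors at 4 loci, placed here with GENCODE 29 on GRCh38. MIR15A (chr13:50049119-50049201, minus strand) and MIR16-1 (chr13:50048973-50049061, minus strand) lie 57 bases apart in DLEU2, the first overlapping an exon and the second in an intron of this long non-coding RNA gene. MIR15B (chr3:160404588-160404685, plus strand) and MIR16-2 (chr3:160404745-160404825, plus strand) lie 59 bases apart within introns of SMC4, which encodes a condensin subunit. MIR195 (chr17:7017615-7017701, minus strand) and MIR497 (chr17:7017911-7018022, minus strand) lie 209 bases apart, both overlapping exons of their host gene MIR497HG. MIR424 (chrX:134546614-134546711, minus strand), which overlaps an exon of MIR503HG in part, and MIR503 (chrX:134546328-134546398, minus strand), which lies in an intron of that gene, are 215 bases apart. MIR16-1 and MIR16-2 give the same miR-16-5p, so its counts cannot be assigned to either locus.

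Mature sequences were read from RefSeq (GRCh38.p14), where all 10 members were found, and are printed 5′ to 3′ with the seed in capitals. The first set holds the 6 members with an identical seed, because the split between them and the others recurs in the values that follow. The split was thus made with the values known and cannot test a role of the seed. Seed and arm also go together in all members except miR-503-5p.
miR-15a-5p: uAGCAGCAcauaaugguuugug
miR-15b-5p: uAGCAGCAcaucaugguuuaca
miR-16-5p: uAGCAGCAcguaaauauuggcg
miR-195-5p: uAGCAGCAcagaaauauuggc
miR-497-5p: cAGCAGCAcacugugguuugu
miR-424-5p: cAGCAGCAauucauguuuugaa

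The second set holds the remaining 4 members, of which miR-503-5p is a guide whose seed differs from the shared one in its last base, and the others are 3′ arms with unrelated seeds.
miR-503-5p: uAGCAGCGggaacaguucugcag
miR-15b-3p: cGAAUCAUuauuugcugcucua
miR-16-2-3p: cCAAUAUUacugugcugcuuua
miR-424-3p: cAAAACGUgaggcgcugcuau

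Compared base by base from the 5′ end, miR-16-5p and miR-195-5p differ at 2 of 21 bases, and miR-15a-5p and miR-15b-5p at 4 of 22. No member had counts within 5% of those of another miRNA in every library. The rule by which reads matching several miRNAs were assigned is not given in these sources.

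The seed matches of both guide types were found in the 3′UTRs of the cyclins that the family is known for. These windows are from GENCODE 29 on GRCh38, given as DNA in the sense of the mRNA with the match in capitals.
CCND1, chr11:69653228-69653256, plus strand, match to miR-503-5p: ccattttcttattgCGCTGCTaccgttga
CCND1, chr11:69653301-69653329, plus strand, match to the shared seed: tctttcacattgttTGCTGCTattggagg
CCNE1, chr19:29824010-29824038, plus strand, match to the shared seed: gtgcgtgctcccgaTGCTGCTatggaagg
CCNE1, chr19:29824248-29824276, plus strand, match to the shared seed: aactgttttgtaagTGCTGCTatatctat

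Each of these matches is followed by an A, opposite base 1 of the miRNA. The 3′UTRs of cyclin D1 (CCND1) and cyclin D2 (CCND2) each held 1 match to the shared seed and 1 match to that of miR-503-5p, whereas cyclin E1 (CCNE1) held 2 matches to the shared seed and none to the other. Cyclin D3 (CCND3) held 1 match to the shared seed, without the following A. Of 19102 genes with 1 3′UTR each, searched on the mRNA strand, 21.4% held the match to the shared seed, TGCTGCT. With the following A it was in 4.18%, and the match to miR-503-5p, CGCTGCT, was in 4.63%. The last 6 bases, which both matches have in common, were in 40.4%. A match is a stretch of letters in the annotation, and no mRNA was measured in these libraries.

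All 6 members with the shared seed fell in RARαS77A cells, to between 43.4% and 62.4% of their control level, and none of the other 4 passed the test in either direction. The fall was seen for guides of every one of the 4 loci. Levels are read counts scaled to a common library size with TMM factors (normalized CPM), and calls are from edgeR's quasi-likelihood test with a Benjamini-Hochberg adjusted p under 0.05 over the 506 miRNAs tested. By this rule 21.1% of all tested miRNAs were lower and 23.3% were higher in RARαS77A cells. The 6 members had a median log2 fold change of -1.06 and the other 4 a median of 0.00, beside 0.06 over all tested miRNAs. For each of the 6, every RARαS77A library also lay below every control library, which held for 27.1% of all tested miRNAs. Fewer copies per cell and fewer cells that hold a miRNA cannot be told apart in these bulk libraries.

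miR-16-5p, the most abundant member, had 1109, 1232 and 1008 normalized CPM in the control libraries and 726, 725 and 637 in the RARαS77A libraries. Every RARαS77A library lay below every control library. Its log2 fold change was -0.68 (SE 0.103, edgeR adjusted p = 0.00171, n = 3 per group), or 62.4% of control.

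miR-15a-5p, which shares a locus with MIR16-1, had 32.5, 32.8 and 25.9 normalized CPM in control and 10.7, 16.3 and 14.3 in RARαS77A libraries. The groups did not overlap, and the log2 fold change was -1.14 (SE 0.216, edgeR adjusted p = 0.00435). miR-15b-5p, the SMC4-hosted counterpart of miR-15a-5p, was more abundant, with 293, 312 and 242 normalized CPM in control. In RARαS77A libraries it had 110, 171 and 125, below every control library, with a log2 fold change of -1.06 (SE 0.187, edgeR adjusted p = 0.00313).

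The least abundant members were the guides of both precursors of the chromosome 17 locus, miR-195-5p and miR-497-5p, which are known in several tumors as a pair that slows growth. miR-195-5p had 122, 118 and 68 raw counts in control and 31, 24 and 30 in RARαS77A libraries. This was 9.79, 8.02 and 6.21 against 3.94, 2.86 and 3.61 normalized CPM, without overlap, and a log2 fold change of -1.21 (SE 0.235, edgeR adjusted p = 0.00487). miR-497-5p had 71, 107 and 60 raw counts in control and 22, 27 and 24 in RARαS77A libraries, which was 5.70, 7.27 and 5.48 against 2.80, 3.22 and 2.89 normalized CPM. The groups again did not overlap, with a log2 fold change of -1.05 (SE 0.190, edgeR adjusted p = 0.00358).

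miR-424-5p, from the X-linked locus and known for its rise during monocyte differentiation, had 125, 120 and 85.1 normalized CPM in control and 62.5, 79.8 and 62.0 in RARαS77A libraries. The groups were separated by a small gap, between 85.1 in control replicate 3 and 79.8 in RARαS77A replicate 2. Its log2 fold change of -0.69 (SE 0.191, edgeR adjusted p = 0.0219) was the least secure of the 6. The call was lost with upper-quartile scaling (log2 fold change -0.48, adjusted p = 0.0718) and without control replicate 1, control replicate 2 or RARαS77A replicate 3 (adjusted p of up to 0.0659).

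miR-503-5p, the guide with the altered seed, had 145, 169 and 132 normalized CPM in control and 147, 192 and 167 in RARαS77A libraries. The groups overlapped, and its log2 fold change was 0.18 (95% interval -0.16 to 0.53, edgeR adjusted p = 0.343). Among the 3′ arms, miR-424-3p had 179, 181 and 168 normalized CPM in control and 139, 232 and 193 in RARαS77A libraries, which lay on both sides of the control values. Its log2 fold change was 0.10 (95% interval -0.33 to 0.53, edgeR adjusted p = 0.679).

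miR-16-2-3p, the 3′ arm of MIR16-2, had 107, 103 and 115 normalized CPM in control and 83.6, 106 and 115 in RARαS77A libraries. Its log2 fold change was -0.10 (95% interval -0.44 to 0.25, edgeR adjusted p = 0.616). miR-15b-3p had 54.4, 75.9 and 76.9 against 70.0, 68.8 and 41.9 normalized CPM, with a log2 fold change of -0.20 (95% interval -0.76 to 0.37, edgeR adjusted p = 0.535). Both overlapped between the groups, and the intervals of these 4 members leave room for changes of up to 0.76 in size on the log2 scale.

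No member was called higher with edgeR, and 0 were higher at an unadjusted p under 0.05. DESeq2 and limma-voom called 0 members higher as well. The calls in the lower direction depended on scaling. With total counts in place of TMM, which moved the median of all tested miRNAs to -0.51, miR-15b-3p (-0.78, adjusted p = 0.0374) and miR-16-2-3p (-0.67, adjusted p = 0.0105) were also called lower, so that 8 members passed, beside 42.1% of all tested miRNAs. miR-424-3p (-0.48) and miR-503-5p (-0.40) turned negative in that fit without passing, and with upper-quartile scaling, which moved the median to 0.27, miR-15b-3p (0.01) and miR-16-2-3p (0.11) turned positive without passing.

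**Figure D1:**
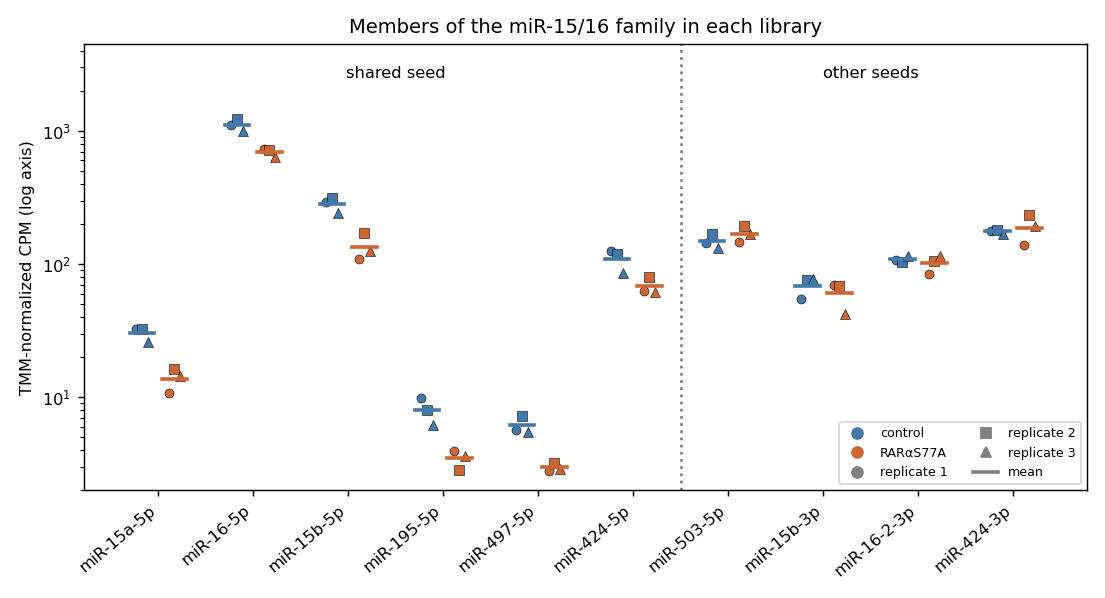
Normalized CPM (log axis) of each member in each library, with control in blue, RARαS77A in orange, a marker shape for each replicate and a bar for the mean of 3. The 6 members with the shared seed, left of the dotted line, have all RARαS77A libraries below all control libraries, and the 4 on the right overlap.

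**Figure D2:**
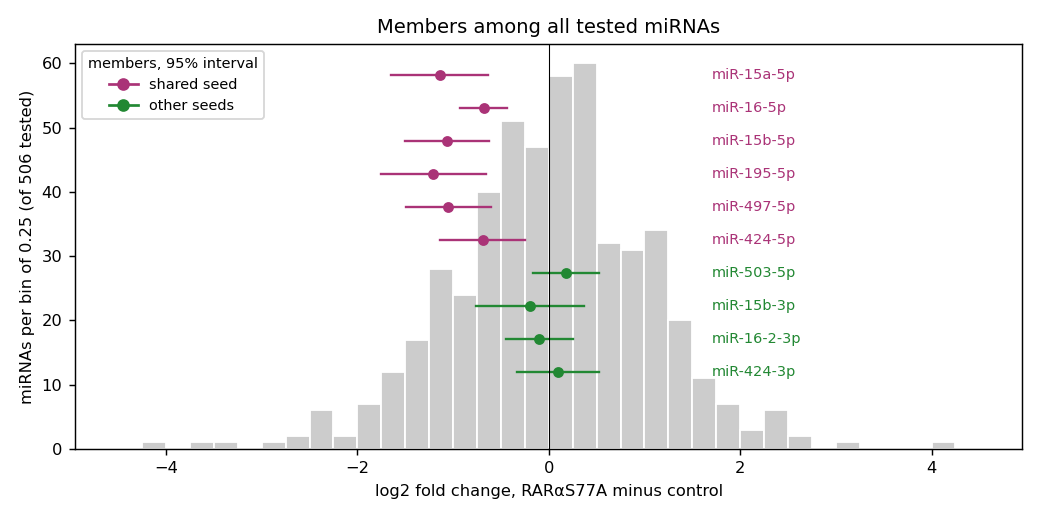
Histogram of the log2 fold change (RARαS77A minus control) of all 506 tested miRNAs in bins of 0.25, with each member's log2 fold change and 95% interval drawn over it at an arbitrary height. The intervals of the 6 members with the shared seed lie below 0, and those of the other 4 cross it.

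Taken as a sum, the 6 guides with the shared seed had 1575, 1712 and 1373 normalized CPM in control and 916, 998 and 846 in RARαS77A libraries. The mean was 1553 ± 171 in control and 920 ± 76.1 in RARαS77A cells (SD, n = 3 each), which is 59.2% of control. As none of the 6 overlapped between the groups, their sum could not overlap either, and it was not tested. miR-16-5p held between 70.4% and 73.4% of this sum in control and between 72.6% and 79.3% in RARαS77A libraries, and so sets most of its value. Without miR-16-5p the other 5 guides summed to 51.1% of control. The 4 members without the shared seed summed to 103% of control, with overlapping libraries. As a share of all deposited counts, the 6 guides took 0.190% ± 0.0287 of a control library and 0.0753% ± 0.00580 of a RARαS77A library (SD, n = 3 each). This share uses total counts without TMM factors. By it the 4 members without the shared seed were lower as well, with 0.0614% ± 0.00649 and 0.0425% ± 0.00670.

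The libraries themselves differed in ways that the groups do not explain. Summed over the 9 miRNAs of a list typical of pluripotent stem cells, which includes miR-302a-3p, miR-367-3p and miR-372-3p, control replicates 1 and 2 had 0.160 and 0.0680 normalized CPM. Control replicate 3 had 443, and the RARαS77A libraries had between 441 and 457. On this list control replicate 3 thus resembled the RARαS77A libraries and not its own group. It was also the lowest of the 3 controls for 6 of the 6 guides with the shared seed, where 33.4% of all tested miRNAs had their lowest control value in this library. Whether control replicate 3 holds RNA or reads of RARαS77A cells, through mixing or carry-over between libraries, was not tested. The part of this library's difference in the values of the family was not tested.

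Without control replicate 3 the 6 guides all remained called lower, with log2 fold changes between -1.40 and -0.80, and 22.1% of the miRNAs tested in that fit were called lower. With a term for control replicates 1 and 2, which in effect sets the RARαS77A libraries against control replicate 3 alone, 3 of the 6 passed, beside 10.9% of all tested miRNAs. This fit assumes that the lone control library varies like the other groups. miR-15a-5p (-0.91, edgeR adjusted p = 0.0437), miR-15b-5p (-0.84, adjusted p = 0.0247) and miR-16-5p (-0.53, adjusted p = 0.0306) passed. miR-195-5p (-0.84, adjusted p = 0.0734), miR-497-5p (-0.88, adjusted p = 0.0527) and miR-424-5p (-0.32, adjusted p = 0.275) kept a negative value and did not pass.

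Other lists of cell type markers were summed in the same way. Muscle miRNAs summed to 82.2 normalized CPM in control replicate 1 and to between 5.51 and 8.57 in the other libraries. Liver miRNAs (miR-122) summed to between 6.87 and 44.2 in control and between 42.4 and 63.5 in RARαS77A libraries, and blood cell miRNAs to between 27.7 and 35.0 and between 28.5 and 40.3. The endocrine list summed to between 3815 and 4972 in control and between 9686 and 10970 in RARαS77A libraries, nearly all of it the broadly expressed miR-7-5p. Its other measured marker, miR-375-3p, had 1.52, 59.1 and 4.93 normalized CPM in control and 5.60, 6.31 and 5.54 in RARαS77A libraries, so that control replicate 2 stood apart on it. Epithelial miRNAs of the miR-200 family and miR-205-5p were at 91.4 to 105 and 111 to 119, low beside the 479167 to 564792 and 825275 to 871083 of the 5 miRNAs listed for mesenchymal-like breast lines. The difference in this last sum came mainly from miR-21-5p and miR-100-5p. miR-221-3p had a mean of 9928 normalized CPM in control and 7959 in RARαS77A libraries, and miR-222-3p had 8113 and 10646. miR-155-5p, also on that list, had at most 0.401 normalized CPM in any library. None of these lists was tested for a part in the values of the family.

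Within a library, the count of a miRNA relative to another does not depend on the scaling between libraries as long as both have reads. Such ratios were compared on the log2 scale between members, or between a member and the other arm of its precursor. Of the 13 ratios, 8 were lower in every RARαS77A library than in every control library, 1 was higher and 4 overlapped. Among the 8, that of miR-15a-5p to miR-15a-3p, has a denominator of 0 or 1 count, so it repeats the raw count of the guide and depends on depth, and 7 of 12 ratios were lower without it. For comparison, of 117 ratios of a 5′ to a 3′ arm with matching names, 24.8% were lower and 34.2% higher without overlap. No such share was computed for ratios between guides, and the 13 ratios reuse the same few miRNAs. Each of the 9 ratios of the 13 that did not overlap had p = 0.1 in the two-sided exact permutation test, the smallest possible, and an adjusted p of 0.144. No ratio could thus pass the threshold in this design.

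At the X-linked locus, the ratios of miR-424-5p to its neighbour and to its own 3′ arm were lower in every RARαS77A library than in every control library. The count of miR-424-5p was 0.860, 0.710 and 0.646 times that of miR-503-5p in control libraries. In RARαS77A libraries the ratio was 0.426, 0.415 and 0.371, a log2 difference of -0.86 between the means. The 9 differences between a RARαS77A and a control library ranged from -1.21 to -0.60. Relative to miR-424-3p, the ratio was 0.699, 0.664 and 0.506 in control and 0.448, 0.344 and 0.321 in RARαS77A libraries, a log2 difference of -0.75. In all libraries the nominal 3′ arm had more counts than the 5′ arm. miR-424-5p is thus called a guide here for its seed and not for its level.

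The ratios of miR-15b-5p and miR-16-5p to the 3′ arms of the SMC4 locus were also lower without overlap. miR-16-5p is also made from MIR16-1, so its ratio to miR-16-2-3p does not belong to the SMC4 locus alone. miR-15b-5p had 5.39, 4.11 and 3.15 times the count of miR-15b-3p in control and 1.57, 2.48 and 2.99 times in RARαS77A libraries. The groups came close, between control replicate 3 and RARαS77A replicate 3, and the log2 difference of the means was -0.86. miR-16-5p had 10.4, 11.9 and 8.74 times the count of miR-16-2-3p in control and 8.69, 6.83 and 5.56 times in RARαS77A libraries, a log2 difference of -0.57 with almost no gap between the groups. The 3′ arms of this locus, miR-16-2-3p and miR-15b-3p, kept overlapping ratios, with a log2 difference of 0.11 and pairwise differences from -0.72 to 1.01 (two-sided exact permutation p = 0.8, adjusted p = 0.867).

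A lower ratio of the 5′ arm to the 3′ arm was not general. The comparison covered 117 pairs of arms with matching names and a mean count of at least 10 for each arm. Arms numbered by precursor were not paired, which left out MIR16-1 and MIR16-2. miR-423 (1.43) and miR-3184 (-1.43) stood as separate pairs, although the arms of each nearly repeat values of the other. The log2 ratio was lower in every RARαS77A library in 24.8% of the pairs and higher in 34.2%, with a median difference of 0.17. From the lowest difference upward, miR-195 ranked 7 (-1.71), miR-15b ranked 22 (-0.86) and miR-424 ranked 23 (-0.75). miR-503 ranked 105 (1.53), in the opposite direction. The ranks of miR-195 and miR-503 rest on rare 3′ arms, with 14 to 30 raw counts per library for miR-195-3p and 3 to 31 for miR-503-3p.

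Between guides, the ratios of miR-15a-5p, miR-15b-5p and miR-195-5p to miR-16-5p were lower in every RARαS77A library. The log2 difference of the ratio to miR-16-5p was -0.47 for miR-15a-5p, -0.40 for miR-15b-5p and -0.50 for miR-195-5p, with p = 0.1 in the exact permutation test for each. For miR-15b-5p the gap was narrow, with ratios of 0.241 to 0.265 in control and 0.151 to 0.236 in RARαS77A libraries. miR-424-5p and miR-16-5p kept a ratio of 0.0844 to 0.113 in control and 0.0861 to 0.110 in RARαS77A libraries, with pairwise log2 differences from -0.39 to 0.38 (two-sided exact permutation p = 0.9).

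The paralogs miR-15a-5p and miR-15b-5p, encoded on different chromosomes, had overlapping ratios. miR-15b-5p had 9.02, 9.52 and 9.36 times the count of miR-15a-5p in control and 10.2, 10.4 and 8.72 times in RARαS77A libraries. The log2 difference was 0.07, with pairwise differences from -0.13 to 0.21 (two-sided exact permutation p = 0.5, adjusted p = 0.650). miR-195-5p and miR-497-5p, from 1 locus, had ratios of 1.10 to 1.71 in control and 0.891 to 1.40 in RARαS77A libraries, with pairwise log2 differences from -0.94 to 0.34 (two-sided exact permutation p = 0.6).

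The order of abundance differed between the groups. All members are 21 to 23 bases long, so the levels were compared without a length correction, although ligation and amplification differ between miRNAs. In control cells miR-16-5p (1116 normalized CPM) was followed by miR-15b-5p (283), miR-424-3p (176), miR-503-5p (149), miR-424-5p (110), miR-16-2-3p (108), miR-15b-3p (69.1), miR-15a-5p (30.4), miR-195-5p (8.01) and miR-497-5p (6.15). The neighbours miR-424-3p and miR-503-5p overlapped, as did miR-424-5p and miR-16-2-3p, and miR-195-5p and miR-497-5p. In RARαS77A cells miR-15b-5p (135) stood after miR-424-3p (188) and miR-503-5p (169), and the libraries of these neighbours overlapped. By raw count in each library, miR-16-5p ranked 43 to 47 among all miRNAs in control and 61 to 63 in RARαS77A libraries.

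The remaining arms of the 8 precursors were rare. miR-16-1-3p, the 3′ arm specific to MIR16-1, had 40, 45 and 27 raw counts in control and 2, 3 and 1 in RARαS77A libraries. It was called lower (edgeR adjusted p = 0.000443), and the summed counts, scaled by normalized library size, gave 8.32% of control with a 95% counting interval of 2.99% to 18.7%. Such an interval covers counting error only. Relative to miR-16-1-3p, the count of miR-16-5p was 341 to 401 times as high in control and 1738 to 3530 times in RARαS77A libraries, the only ratio of the 13 that was higher in every RARαS77A library. miR-16-2-3p, its counterpart from MIR16-2, had 1261 to 1520 raw counts in control and 657 to 952 in RARαS77A libraries. Its normalized CPM overlapped between the groups and it was not called, with a log2 fold change of -0.10 (edgeR adjusted p = 0.616).

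miR-503-3p had 28, 31 and 16 raw counts in control and 4, 15 and 3 in RARαS77A libraries, with a log2 fold change of -1.12 (edgeR adjusted p = 0.140). miR-195-3p had 17, 28 and 15 against 14, 14 and 30 raw counts, with a log2 fold change of 0.59 (edgeR adjusted p = 0.230). Neither passed the test. miR-15a-3p had at most 1 count in any library, so its ratio to miR-15a-5p mainly follows the guide, and miR-497-3p is not analysed here.

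The X-linked locus holds further precursors downstream of MIR503, beginning with MIR542 at a distance of 4890 bases, and none of their tested miRNAs was called lower. miR-450a-5p had 52.4, 57.2 and 62.7 normalized CPM in control and 129, 139 and 105 in RARαS77A libraries. It rose without overlap, with a log2 fold change of 1.12 (SE 0.154, edgeR adjusted p = 0.00123). miR-450b-5p had 44.0, 27.3 and 39.5 against 65.5, 70.4 and 49.1 normalized CPM and was called higher with a log2 fold change of 0.74 (SE 0.231, edgeR adjusted p = 0.0340).

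The call for miR-450b-5p was lost without control replicate 2, RARαS77A replicate 1 or RARαS77A replicate 2 (adjusted p of 0.0608, 0.125 and 0.120) and with total counts (0.18, adjusted p = 0.525). miR-542-3p had 12.4, 8.91 and 9.50 against 11.5, 12.3 and 8.55 normalized CPM, a log2 fold change of 0.07 (95% interval -0.44 to 0.58). The locus thus held miRNAs that were called higher, called lower and not called. miR-450a-2-3p had between 2 and 16 raw counts per library and did not pass (-0.26, edgeR adjusted p = 0.786). miR-542-5p and miR-450a-1-3p, with at most 4 and 14 raw counts in a library, did not reach the filter, and miR-450b-3p is not analysed here.

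**Figure D3:**
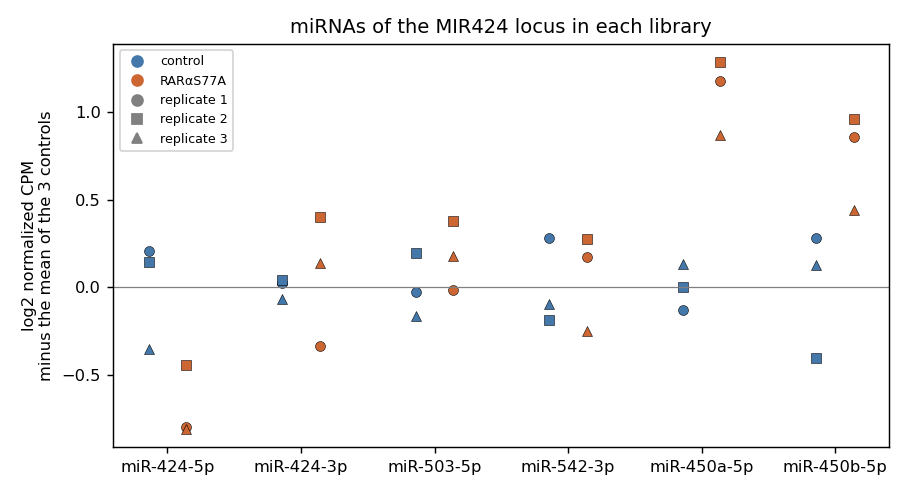
Log2 normalized CPM of 6 miRNAs of the X-linked MIR424 locus in each library (control blue, RARαS77A orange, a marker shape for each replicate), minus the mean of the 3 controls. miR-424-5p is lower and miR-450a-5p higher in every RARαS77A library, while miR-424-3p, miR-503-5p and miR-542-3p overlap.

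Among miRNAs with the same or a shifted seed, miR-6838-5p carries the shared seed and had at most 1 count per library. The guides miR-103a-3p and miR-107 are known for targeting cell cycle genes as well, and their seed is the shared one moved by 1 base.
miR-107: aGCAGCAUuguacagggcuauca

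miR-107 had 610, 601 and 577 normalized CPM in control and 204, 288 and 219 in RARαS77A libraries. It was called lower without overlap (log2 fold change -1.33, SE 0.140, edgeR adjusted p = 0.000334). miR-103a-3p, with the same seed and a far higher level, had 8970, 8396 and 7931 against 7650, 9383 and 6741 normalized CPM. Its groups overlapped, and its log2 fold change was -0.09 (95% interval -0.40 to 0.22, edgeR adjusted p = 0.610). With total counts miR-103a-3p was called lower as well (-0.66, adjusted p = 0.00478). The precursors of miR-103a-3p have antisense partners (miR-103b). The values of miR-103b were nearly the same, with 8821, 8277 and 7815 normalized CPM in control and 7502, 9230 and 6622 in RARαS77A libraries. The same reads may thus stand under both names, so the counts of miR-103a-3p are uncertain. miR-646 is not analysed here.

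The family was set beside other miRNAs known for targeting G1 cyclins and CDKs, a list of 26 of which 23 were tested. Of these, 8 fell, 5 rose and 10 did not pass, beside 21.1% lower and 23.3% higher over all tested miRNAs. The median log2 fold change of the list was -0.21, against 0.06 over all tested miRNAs. The largest falls were those of miR-19b-3p (-1.83, edgeR adjusted p = 0.00171) and miR-17-5p (-1.28, adjusted p = 0.000560), both of the miR-17-92 cluster. miR-193b-3p, known for targeting cyclin D1, rose from 26.6, 32.8 and 31.5 to 68.9, 59.2 and 59.0 normalized CPM (log2 fold change 1.04, adjusted p = 0.00171). let-7e-5p rose by 0.56 on the log2 scale (edgeR adjusted p = 0.0169), a direction that turned with total counts (-0.02). With total counts, where 42.1% of all tested miRNAs were called lower and 10.1% higher, 16 of the 23 were lower and 0 higher, with 1 higher at an unadjusted p under 0.05 in that fit and 1 called higher by limma on TPM.

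Of 7 miRNAs known for targeting CDK inhibitors, which act against the cell cycle arrest that the family favours, 4 fell, 3 did not pass and 0 were called higher with edgeR. At an unadjusted p under 0.05, 1 was higher, and DESeq2 and limma-voom called 0 higher. The largest fall was that of miR-106b-5p, known for targeting p21, with 408, 413 and 341 normalized CPM in control and 135, 160 and 137 in RARαS77A libraries (log2 fold change -1.43, edgeR adjusted p = 0.000237). The second was that of miR-17-5p, which stands in both lists with miR-20a-5p. The median log2 fold change of the 7 was -1.03, beside 0.06 over all tested miRNAs, of which 21.1% were called lower and 23.3% higher.

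The profile of miR-16-5p over the 6 libraries was most like those of miR-125b-5p (Pearson r = 0.986 on log2 normalized CPM), miR-210-3p (0.981), miR-30b-5p (0.976), miR-194-5p (0.969) and miR-374c-3p (0.968) among tested miRNAs outside the lists above. These points share their libraries and scaling, and 55 of the 505 other tested miRNAs had r above 0.9, so the likeness is a description. The values of miR-374c-3p nearly repeat those of miR-374b-5p in every library, with 304, 293 and 226 normalized CPM in control for both. The same reads may thus stand under both names, which was not tested. Among members, r with miR-16-5p was 0.980 for miR-497-5p, 0.940 for miR-15b-5p, 0.925 for miR-15a-5p, 0.920 for miR-424-5p and 0.919 for miR-195-5p. It was 0.469 for miR-15b-3p, 0.158 for miR-16-2-3p, -0.145 for miR-424-3p and -0.348 for miR-503-5p.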

How the data were processed

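Small RNA was sequenced from 3 control and 3 RARαS77A libraries of MDA-MB-231 cells (NEBNext small RNA kit, HiSeq). The authors deposited raw read counts per miRNA, and the same counts as TPM, which here are the counts divided by the library total with no length term. The submitters' processing notes name Bowtie. Its version, the genome build, trimming and how reads with several matches were handled are not given in these sources. Totals lay between 9019266 and 11338580 counts per library.

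Counts were tested with edgeR 4.0.16 in R 4.3.3 (TMM, filterByExpr with a minimum count of 10, glmQLFit and glmQLFTest, Benjamini-Hochberg). SE is the size of the log2 fold change over the root of the F statistic. TMM factors were 1.15 to 1.30 in control and 0.811 to 0.830 in RARαS77A libraries, so levels are relative. Ratios within a library had 0.5 added to each count and were tested with a two-sided exact permutation test (scipy 1.17.1). Alternatives used DESeq2 1.42.0, limma 3.58.1 (voom, or a trend on log2 TPM with 1 or 10 added), further scalings and filters, a replicate block, a term for control replicates 1 and 2, and each library left out. Scripts were tested on simulated data.

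Members and lists were chosen with earlier results of these data known. Named miRNAs are the members, the other arms of their precursors, the miRNAs of the MIR424 locus, those with the same or a shifted seed, the 2 largest rises and falls passing the test in each of the pathway lists, and the 5 miRNAs most correlated with miR-16-5p.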

Additional observations from a re-analysis of the deposited data

How the results depend on the processing

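The 6 guides with the shared seed were negative in all 114 alternative values, of which 106 kept the call and 8 lost it. Of 76 alternative values of the other 4 members, 70 stayed uncalled and 6 became called, all lower. Over all tested miRNAs, 118 were higher and 107 lower; total counts gave 51 and 213, limma on TPM plus 1 gave 55 and 221, on TPM plus 10 gave 59 and 218, and the term for control replicates 1 and 2 gave 76 and 55. Without a filter 162 were lower, and at an adjusted p under 0.01, 62. Members and guides called lower fell from 6 to 3 with the term for control replicates 1 and 2. Leaving out each library gave 101 to 125 miRNAs higher, 92 to 116 lower, 5 to 6 members and guides lower and 0 members higher. It gave 9 to 10 ratios without overlap, a count that leaving out a library can raise but not lower. let-7e-5p turned negative with total counts (-0.017) and with limma on TPM (-0.0099 at either pseudocount). With total counts, limma on TPM plus 1 and plus 10, 8 members were lower. The replicate block gave 107 higher and 94 lower and changed no member's call. Same-numbered libraries deviated together only weakly (correlations of 0.0386, 0.0996 and 0.0247). Such values cannot show whether libraries with the same number were prepared together. The cause of these changes was not tested. Depth limits the arms with under 50 counts per library.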
